A study of Mus musculus with 6 samples.

Results

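The 10 genes described here encode the 2 chains of the interleukin-7 (IL-7) receptor (Il7r and Il2rg), the kinases bound to them (Jak1 and Jak3), the transcription factors they activate (Stat5a and Stat5b) and 4 targets of that signal (Cish, Socs1, Socs3 and Pim1). They were taken by symbol, not by any measured value, from a table of 49997 gene symbols, and all 10 are listed there. RNA came from small pre-B cells purified by flow cytometry from the bone marrow of C57BL/6 mice aged 6 to 12 weeks. There were 3 libraries from wild-type (WT) mice and 3 from mice of the ΔrsCBE genotype; the prefix Δ marks a deletion, whose interval the labels do not state. The labels name no treatment and do not say whether each library came from 1 mouse or from pooled mice, so p-values measure only the spread between these libraries.

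IL-7 is made by stromal cells of the marrow and is required by B-cell precursors of the mouse. It joins the IL-7 receptor alpha chain to the common gamma chain, which brings JAK1 and JAK3 together, and these kinases phosphorylate STAT5, which enters the nucleus and binds DNA. The signal sustains survival and division of pro-B and large pre-B cells, and its decline accompanies exit from the cell cycle and light chain gene rearrangement at the small pre-B stage. Among STAT5 targets, CISH, SOCS1 and SOCS3 feed back on receptors and JAKs, and PIM1 is a kinase that promotes survival.

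STAT5 binds the palindrome TTCNNNGAA, in which N is any base, and this motif was looked for in windows from 250 bases before to 50 bases after the RefSeq starts of the 10 genes. The table of windows (RefSeq, GRCm38.p6) held 13 for these genes, with at least 1 for each of the 10. Of the 13 windows 3 held the motif, in Cish, Socs3 and Il7r, while 8.30% of all 32851 windows did. Cish, the classical STAT5 target, had 2 copies in its window, and 0.457% of all windows had 2 or more. The motif reads the same on both strands. It is shown in capitals, in stretches of 30 bases on the strand of the gene.
Cish: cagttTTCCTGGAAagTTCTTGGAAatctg
Socs3: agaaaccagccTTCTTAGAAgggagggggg
Il7r: agttcaggagcTTCAGGGAAtaccaagatg
The Cish stretch lies at chr9:107296654-107296683 (plus strand), the Socs3 stretch at chr11:117969502-117969531 (minus strand) and the Il7r stretch at chr15:9530000-9530029 (minus strand). In GENCODE M21, which starts these 3 genes further upstream than RefSeq does, the Cish stretch is exonic and the other stretches are intronic. A match of letters is not a measured binding site.

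The libraries were shallow, with total counts from 428106 to 1300805, so that 3 counts, taken as the smallest detectable amount, equal 2.38 to 7.36 CPM (reads of a gene relative to the scaled total of its library). This floor and all intervals on counts cover counting error only. By Xist and Y-linked genes, the 3 WT libraries and ΔrsCBE replicate 1 had a male pattern and ΔrsCBE replicates 2 and 3 a female one. Male-pattern libraries alone thus set 3 WT against 1 ΔrsCBE library, and no WT library was female. All 12 markers of pre-B cells were detected, among them the B-lineage factor gene Pax5 (3225 ± 420.1 CPM in WT, SD, n = 3) and the recombinase gene Rag1 (3249 ± 578 CPM). Markers of cells outside the B lineage were scarce, apart from Itgam. The summed level of 10 T and NK cell markers was 4.87 to 9.81 CPM in WT and 4.13 to 9.68 CPM in ΔrsCBE, with 7 of the 10 at 0, Cd3e among them. Of 8 erythroid markers 6 were at 0, including Klf1 and Alas2, and 6 stromal markers summed to 0 CPM in each WT library and to 1.26 to 3.63 CPM in ΔrsCBE. The sum of 8 myeloid markers was 53.8 to 83.4 CPM in WT and 54.5 to 68.2 CPM in ΔrsCBE, nearly all of it Itgam, with S100a8 and Elane at 0. Lyz2 and S100a9 had no reads in WT, and 2, 4 and 2 reads and 2, 1 and 3 reads in ΔrsCBE replicates 1, 2 and 3; their part in the results was not tested. Later B-lineage lists were higher, with genes that pre-B cells also express: 7 mature B markers summed to 459 to 574 CPM in WT and 440 to 491 CPM in ΔrsCBE, with Ighd at 0 and Cd22 at 242 and 209.6 CPM on average. The 5 plasma cell markers summed to 1133 to 1258 CPM in WT and 1134 to 1430 CPM in ΔrsCBE, mostly Irf4 (1097 and 1152 CPM on average), with 1 read of Jchain in all. For 7 pro-B and large pre-B markers the sums were 22.7 to 41.7 CPM in WT and 21.8 to 36.6 CPM in ΔrsCBE, mostly Erg. Cell cycle genes were nevertheless well detected: 22 of them, such as Mki67, summed to 6707 to 7349 CPM in WT and 2842 to 4570 CPM in ΔrsCBE. The share of dividing cells was not tested.

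None of the genes that could be tested differed between the genotypes past the threshold. Of the 10, 8 had enough counts for the test, and Cish and Socs3 did not. By edgeR's quasi-likelihood test, 0 of the 8 had an adjusted p-value under 0.05 (Benjamini-Hochberg over 7792 genes), against 1.69% of all tested genes. At an unadjusted p-value under 0.05 there was 1, Stat5a, against 10.2% of all tested genes. By the DESeq2 Wald test the counts were 0 and 0. Groups without overlap in CPM were found for 2 of the 8, Stat5a and Il2rg, both higher in ΔrsCBE; 16.1% of all tested genes had no overlap, 7.23% with the higher values in ΔrsCBE. The median log2 fold change (ΔrsCBE over WT) of the 8 was 0.19 and that of all tested genes was 0.01. In bulk RNA, a change in the number of cells expressing a gene and a change in RNA per cell cannot be told apart.

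**Figure D1:**
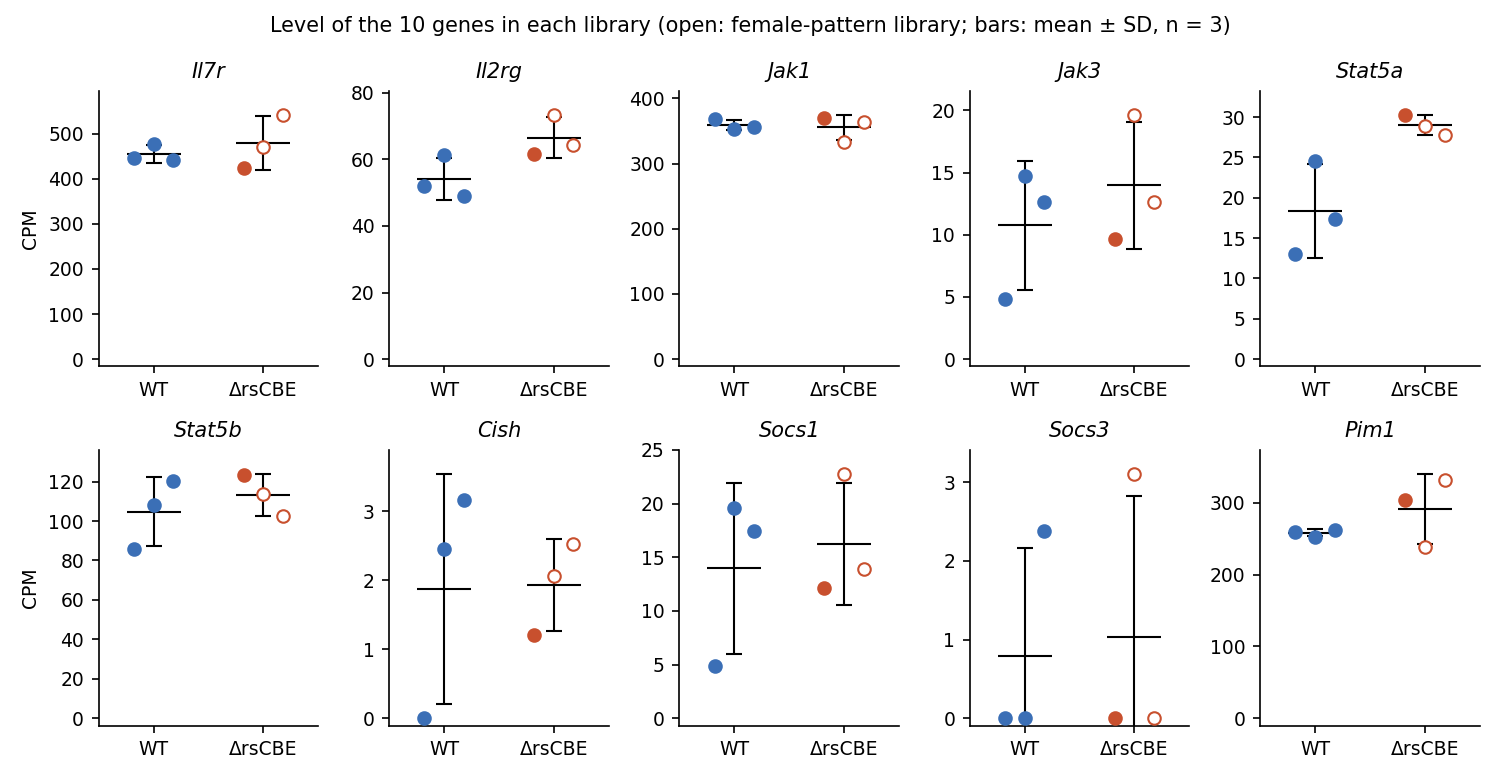
Level of each of the 10 genes in CPM (vertical axis, from 0, own scale per gene) in the 3 WT (blue) and 3 ΔrsCBE (red) libraries; open points are female-pattern libraries, and bars are mean ± SD. Stat5a and Il2rg are the genes whose groups do not touch, while Cish and Socs3 lie near 0 in all libraries.

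Il7r encodes the IL-7 receptor alpha chain, CD127, which gives the receptor its specificity (minus strand of chromosome 15, 9505788 to 9530176, in GENCODE M21 coordinates of GRCm38 as for all genes here). In WT replicates 1, 2 and 3 it stood at 446, 478 and 441 CPM, against 424, 471 and 542 CPM in the ΔrsCBE replicates, and libraries keep this order for the genes that follow. The groups overlapped, with the lowest and the highest library both in ΔrsCBE. edgeR estimated a log2 fold change of 0.08 (SE 0.11, 95% interval -0.16 to 0.31, adjusted p-value 0.891). As folds the interval of this fit, which has no term for sex pattern, runs from 0.896 to 1.24. Larger changes of the Il7r transcript in either direction lie outside it. With a term for sex pattern the log2 fold change was -0.10 (SE 0.14), to which that interval does not apply. The sign in the main fit rested on ΔrsCBE replicate 3, without which the value was -0.021. In the male-pattern libraries alone, with 1 ΔrsCBE library, the log2 fold change was -0.10.

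Il2rg encodes the common gamma chain, shared with the receptors for IL-2, IL-4, IL-9, IL-15 and IL-21 (chromosome X, 101264378 to 101268255, minus strand). Its levels were 51.9, 61.3 and 49.1 CPM in the WT libraries and 61.7, 73.4 and 64.4 CPM in the ΔrsCBE ones. All ΔrsCBE libraries lay above all WT libraries, but ΔrsCBE replicate 1 exceeded WT replicate 2 by less than 1 CPM. The estimate was 0.34 on the log2 scale (SE 0.21, 95% interval -0.09 to 0.76, edgeR adjusted p-value 0.623). It was 0.23 in the male-pattern libraries alone. GENCODE M21 draws another gene, Gm20489, over the whole of Il2rg on the same strand, and reads that fit both could be left out or divided by the counting. No reads were counted for Gm20489 itself.

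The receptor chains can be compared only per length, as RPKM (CPM per kilobase of exonic sequence in GENCODE M21). That length joins the exons of all annotated transcripts of a gene, for example 6419 bases for Cish, 7133 for Stat5a and 5539 for Stat5b. Levels compared between genes, here and below, thus depend on the annotation. Il7r had 97.6 ± 4.31 RPKM in WT and 103 ± 12.8 RPKM in ΔrsCBE, and Il2rg had 22.7 ± 2.68 and 27.9 ± 2.56 RPKM (SD, n = 3). The ratio of Il7r to Il2rg was 4.40, 3.99 and 4.60 in the WT libraries and 3.51, 3.29 and 4.31 in the ΔrsCBE ones. Transcripts of the specific chain thus exceeded those of the shared chain in all 6 libraries. The groups overlapped in this ratio (exact two-sided permutation p = 0.2, n = 3 per group; 0.267 after Benjamini-Hochberg adjustment over 4 ratios), in a design that cannot give a p below 0.1.

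Jak1 encodes the kinase bound to the IL-7 receptor alpha chain (chromosome 4, 101152367 to 101265282, minus strand). It had the narrowest relative range of the 10 genes over the 6 libraries, with 368, 353 and 356 CPM in the WT libraries and 369, 334 and 364 CPM in the ΔrsCBE ones. The WT range lay within the ΔrsCBE range. The estimated log2 fold change was -0.02 (SE 0.11, edgeR adjusted p-value 0.982), and its 95% interval, -0.25 to 0.22, leaves room for a fold between 0.841 and 1.16. In WT the spread between libraries (SD 7.99 CPM) was below the 24.1 CPM that counting error alone gives on average.

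Jak3 encodes the kinase bound to the common gamma chain (chromosome 8, 71676296 to 71690575, plus strand). The WT libraries held only 3, 6 and 16 of its reads and the ΔrsCBE libraries 8, 19 and 10, which are 4.87, 14.7 and 12.7 CPM and 9.68, 19.6 and 12.6 CPM. The groups overlapped, with ΔrsCBE replicate 2 the highest, and the estimate of 0.39 on the log2 scale had a 95% interval from -0.53 to 1.31 (edgeR adjusted p-value 0.841). As folds this interval runs from 0.694 to 2.47. The direction was not stable: the estimate was 0.046 without ΔrsCBE replicate 2, 0.094 without WT replicate 1 and -0.15 in the male-pattern libraries alone. Per length, Jak1 exceeded Jak3 by 56.0, 17.8 and 20.8 times in WT and by 28.2, 12.6 and 21.3 times in ΔrsCBE, a wide range from few Jak3 reads (exact two-sided permutation p = 0.7, n = 3 per group, as given and after adjustment over 4 ratios). The end of Jak3 overlaps Insl3, for which no reads were counted, on the same strand.

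Stat5a and Stat5b are neighbouring genes on chromosome 11 that encode closely related proteins; reads that fit both copies are uncertain. Stat5a (100859351 to 100885169, plus strand) had the largest log2 fold change of the 8 tested genes. The WT libraries gave 13.0, 24.5 and 17.4 CPM from 8, 10 and 22 reads, and the ΔrsCBE libraries gave 30.3, 28.9 and 27.8 CPM from 25, 28 and 22 reads. Every ΔrsCBE library lay above every WT library. edgeR put the log2 fold change at 0.71 (SE 0.32, 95% interval 0.05 to 1.38, unadjusted p-value 0.0367). After adjustment over all genes the edgeR p-value was 0.426, and the gene, at rank 668 of 7792 by p-value, did not pass the test. The male ΔrsCBE library had the highest value, and in the male-pattern libraries alone the log2 fold change was 0.78. The last 72 bases of Stat5a overlap Stat3 on the opposite strand.

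Stat5b (100780731 to 100850724, minus strand) had 86.0, 108 and 120 CPM in the WT libraries and 123, 114 and 102 CPM in the ΔrsCBE ones. The groups overlapped, and the log2 estimate was 0.09 (SE 0.17, 95% interval -0.26 to 0.44, edgeR adjusted p-value 0.927). Per length, Stat5b exceeded Stat5a by 8.53, 5.67 and 8.90 times in WT and by 5.25, 5.06 and 4.74 times in ΔrsCBE.

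The share of Stat5a in the reads of both genes was examined after these values had been seen. The WT libraries gave 13.1%, 18.5% and 12.6%, with 95% Wilson intervals of 6.80% to 23.8%, 10.4% to 30.8% and 8.50% to 18.4%. The ΔrsCBE libraries gave 19.7%, 20.3% and 21.4%, with intervals of 13.7% to 27.4%, 14.4% to 27.8% and 14.5% to 30.2%. The group means, 14.8% ± 3.26 and 20.4% ± 0.848 (SD, n = 3), differed by 5.69 percentage points with an exact two-sided permutation p of 0.1, the smallest that 3 against 3 libraries allow, and 0.2 after adjustment over 4 ratios. The 4 include both this share and the ratio of Stat5b to Stat5a, which come from the same counts. The adjustment, here and for the ratios above, was therefore not over 4 separate ratios. Every ΔrsCBE interval overlapped every WT interval.

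**Figure D2:**
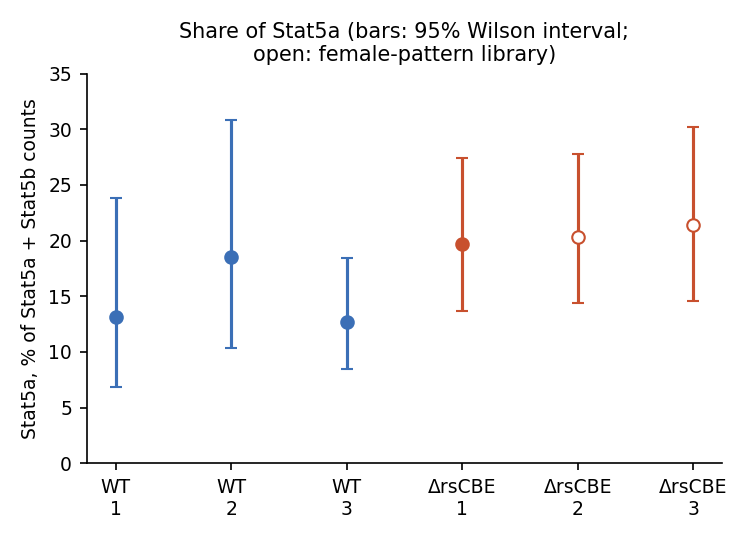
Stat5a counts as a percentage of Stat5a plus Stat5b counts (vertical axis) in each library (horizontal axis), with 95% Wilson intervals; open points are female-pattern libraries. The ΔrsCBE points, 19.7% to 21.4%, lie above the WT points, 12.6% to 18.5%, with overlapping intervals.

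Pim1 was the most abundant of the 4 target genes (chromosome 17, 29490753 to 29496112, plus strand). Its levels were 260, 253 and 262 CPM in the WT libraries and 304, 238 and 332 CPM in the ΔrsCBE ones. ΔrsCBE replicate 2 lay below the WT libraries and the other ΔrsCBE libraries above them. On the log2 scale the change was estimated at 0.17 (SE 0.13, 95% interval -0.11 to 0.44, edgeR adjusted p-value 0.753). The spread was uneven: the SD was 4.95 CPM in WT, where counting error alone gives 20.5 CPM, and 48.5 CPM in ΔrsCBE, or 2.64 times counting error. Without ΔrsCBE replicate 2 the estimate was 0.30 (unadjusted p-value 0.0342, edgeR adjusted p-value 0.384), and without ΔrsCBE replicate 3 it was 0.061 (edgeR adjusted p-value 0.974).

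The ΔrsCBE library with the lowest Pim1 level, replicate 2, was also the lowest of its group in the summed level of 18 early response genes, such as Fos and Jun, which are induced within minutes of a stimulus. That sum was 4920 CPM in replicate 2, 7107 and 6712 CPM in replicates 1 and 3, and 3712 to 4220 CPM in WT. Replicates 1 and 3 stood in the reverse order for Pim1 (304 and 332 CPM). Replicate 2 lay above the WT libraries in the sum but below them in Pim1. Of the 14 early response genes that were tested, 4 rose and 0 fell past the threshold, against 0.205% and 1.49% of all tested genes. Their part in the Pim1 values was not tested.

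Socs1, an inhibitor of JAK kinases, had 3, 8 and 22 reads in the WT libraries and 10, 22 and 11 reads in the ΔrsCBE ones (chromosome 16, 10782240 to 10785536, minus strand). These are 4.87, 19.6 and 17.4 CPM and 12.1, 22.7 and 13.9 CPM. ΔrsCBE replicate 2 was the highest library, and the other ΔrsCBE libraries lay within the WT range. The 95% interval around the log2 estimate of 0.22 ran from -0.65 to 1.09 (edgeR adjusted p-value 0.927), which covers folds from 0.636 to 2.13. In the male-pattern libraries alone it was -0.22.

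Cish, whose window holds both copies of the STAT5 motif shown above, was barely detected (chromosome 9, 107296026 to 107302784, plus strand). Reads numbered 0, 1 and 4 in the WT libraries and 1, 2 and 2 in the ΔrsCBE ones, or 0, 2.45 and 3.17 CPM and 1.21, 2.07 and 2.53 CPM. With 5 reads in each group the ratio of ΔrsCBE to WT, scaled for depth, was 0.885, with an exact 95% interval from 0.204 to 3.84 that covers counting error only. Socs3, which acts mainly on receptors of the gp130 family (chromosome 11, 117966079 to 117970047, minus strand), had 3 reads in WT replicate 3, 3 reads in ΔrsCBE replicate 2 and none in the other libraries. Its ratio was 0.885 with an interval from 0.118 to 6.60. For neither gene was a difference detectable at this depth.

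**Figure D3:**
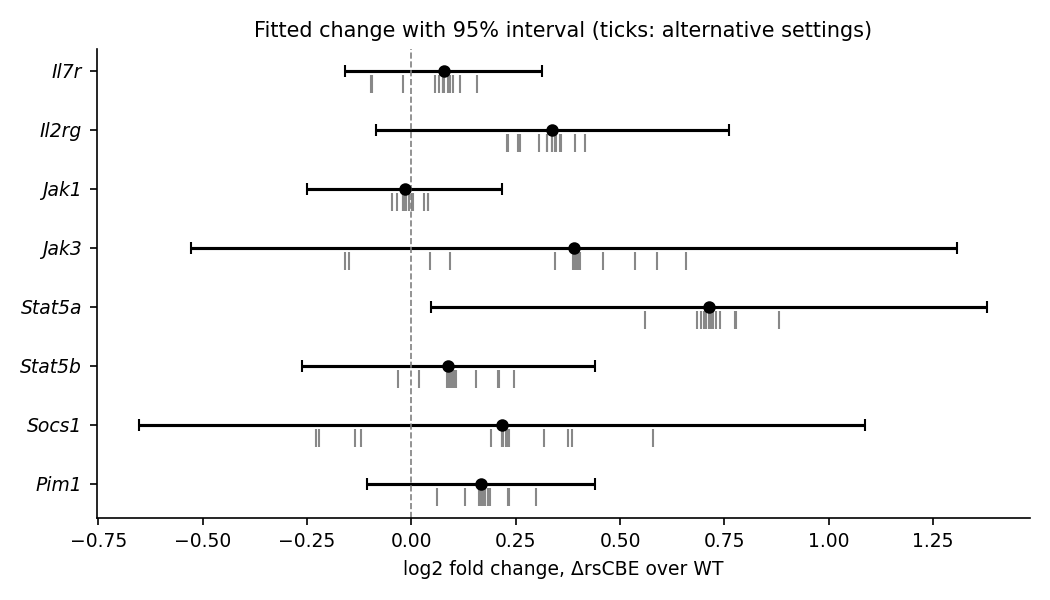
Log2 fold change (horizontal axis, ΔrsCBE over WT) of the 8 tested genes with 95% intervals; grey ticks are the values under 15 alternative settings per gene. The interval of Stat5a, 0.05 to 1.38, is the one that does not include 0, and Jak3 and Socs1 have the widest spread of ticks.

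Per length, the order of the 10 genes over the 6 libraries ran from Il7r (mean 100.2 RPKM, range 90.9 to 116) over Pim1 (81.7, range 70.7 to 98.8), Jak1 (49.5, range 46.2 to 51.1), Il2rg (25.3, range 20.6 to 30.7) and Stat5b (19.7, range 15.5 to 22.3) to Socs1 (5.19, range 1.67 to 7.82). Stat5a (3.32 RPKM, range 1.82 to 4.24), Jak3 (2.31, range 0.909 to 3.67), Socs3 (0.316, range 0 to 1.07) and Cish (0.297, range 0 to 0.493) followed. Ranges of neighbours did not overlap between Pim1 and Jak1, between Jak1 and Il2rg and between Stat5b and Socs1; all other neighbours overlapped. Receptor alpha chain, Pim1 and Jak1 transcripts were thus plentiful in both genotypes, and the feedback inhibitors Cish, Socs1 and Socs3 were at or below 7.82 RPKM in every library. The genes whose log2 CPM followed that of Il7r most closely over the 6 libraries were H2-T23 (Pearson r = 0.991), Tmem87a (0.980), Chmp2a (0.968), Gm41949 (0.960) and Mea1 (0.958), the top 5 of 6410 genes with at least 20 CPM; with 6 points and that many genes this is a description.

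The wider pathway was read from 7 lists with 90 genes beside the 10. Of these 72 were tested: 1 rose and 0 fell past the threshold, against 0.205% and 1.49% of all tested genes. At an unadjusted p-value under 0.05 there were 9 higher and 1 lower, 13.9% in all, against 4.22% higher and 6.02% lower, 10.2% in all, of all tested genes. A log2 fold change above 0 was found for 80.6% of the 72, against 51.8% of all tested genes, and the median of the 72 was 0.12. Groups did not overlap in CPM for 16 of the 72 (22.2%), against 16.1% of all tested genes. The gene that rose was Spi1, which encodes PU.1, an ETS-family transcription factor known to bind the Il7r promoter. The WT libraries had 47.0, 56.4 and 41.2 CPM of it and the ΔrsCBE libraries 83.5, 77.5 and 78.3 CPM, with no overlap (log2 estimate 0.78, SE 0.20, edgeR adjusted p-value 0.0480). The call was lost, leaving 0 in these lists, by the DESeq2 Wald test and in fits with the sex pattern or the replicate number as a further term. It was also lost, again leaving 0, without WT replicate 1, WT replicate 3, ΔrsCBE replicate 2 or ΔrsCBE replicate 3. Without ΔrsCBE replicate 1 the calls were Myb and Ptpn6 instead. That fit set female-pattern ΔrsCBE libraries against male-pattern WT libraries, so genotype and sex pattern cannot be told apart in it. In the male-pattern libraries alone Spib, a gene of the list restrained by IL-7, was called and Spi1 was not. These calls rest on 1 ΔrsCBE library. The log2 fold change of Spib was 0.46 there and 0.20 in all libraries.

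Spi1 passed the edgeR threshold, though not in every setting, and Il7r did not. The Il7r window was therefore also read for AGGAAGT, letters that hold the ETS core GGAA. The core alone also lies in the Il7r stretch shown above for the STAT5 motif. The letters AGGAAGT, on either strand, occurred once, 49 bases before the RefSeq start, and were chosen after the sequence had been seen. In the following stretch (chr15:9529908-9529937, minus strand, intronic in GENCODE M21) the capitals mark them as they read on the strand of the gene.
Il7r: ccttttgctcagACTTCCTgtttctggcac
The same letters occurred in 9.35% of all windows of that length, and 1 of the 13 windows of the 10 genes held them.

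Of the 12 regulators of Il7r, 10 were tested, and Spi1 was the 1 called. Myb, a factor of progenitor cells, had 3199, 3227 and 3437 CPM in the WT libraries and 3423, 4367 and 4388 CPM in the ΔrsCBE ones (log2 fold change 0.30, edgeR adjusted p-value 0.123). The male ΔrsCBE library lay within the WT range, and the higher values were those of the female-pattern libraries.

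Ligands and related receptors gave 0 calls among 5 tested of 14. Il7 itself had 4 reads over the 6 libraries, Il15 had 13, and Tslp, Il2, Il4, Il9 and Il21 were at 0 in every library, as was the receptor gene Il2rb; Il9r had 5 reads. Il2ra, which encodes CD25, a surface marker of small pre-B cells, had 652 to 701 CPM in WT and 714 to 788 CPM in ΔrsCBE (log2 fold change 0.12, 95% interval -0.09 to 0.33, edgeR adjusted p-value 0.765). Crlf2, which encodes the receptor that pairs with the IL-7 receptor alpha chain to bind TSLP, had 13.0 to 17.4 CPM in WT and 12.6 to 27.8 CPM in ΔrsCBE. The log2 fold changes of Il4ra, Il15ra and Il21r were 0.04, 0.24 and 0.03.

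The other JAK and STAT genes gave 0 calls among 6 tested of 7. Stat2, a factor of the interferon response, had 71.1 to 107 CPM in WT and 107 to 135 CPM in ΔrsCBE, with a log2 fold change of 0.41 (unadjusted p-value 0.0257, edgeR adjusted p-value 0.373). Its male ΔrsCBE library lay within the WT range, and the female-pattern libraries had 130 and 135 CPM. Tyk2 and Stat3 had log2 fold changes of 0.34 and 0.28 (edgeR adjusted p-values 0.568 and 0.573) with groups that did not overlap. Jak2, with every ΔrsCBE library below every WT library, and Stat6 had log2 fold changes of -0.13 and 0.12, and Stat4 had 18 reads in all and was not tested.

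Of the 17 other negative regulators 16 were tested with 0 calls. Ptpn6, which encodes the phosphatase SHP-1, had 213, 257 and 223 CPM in the WT libraries and 249, 339 and 331 CPM in the ΔrsCBE ones (log2 fold change 0.42, edgeR adjusted p-value 0.153). As for Myb, the male ΔrsCBE library lay within the WT range, and the higher values were those of the female-pattern libraries. Socs6 had a log2 fold change of -0.74 from 110 reads over the 6 libraries (95% interval -1.44 to -0.04, edgeR adjusted p-value 0.445).

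The other STAT5-induced genes also gave 0 calls, with 7 of 11 tested. Mcl1, a survival gene of the BCL2 family, had 477, 591 and 554 CPM in the WT libraries and 701, 612 and 614 CPM in the ΔrsCBE ones (log2 fold change 0.25, edgeR adjusted p-value 0.406). Ccnd3, which encodes the cyclin D3 needed for division of pre-B cells, had a log2 fold change of 0.24, with adjusted p-value 0.603 in edgeR and with groups that did not overlap. The 4 genes not tested were Myc, Mycn, Bcl2 and Osm, named here after their values were seen, with means between 0.807 and 8.43 CPM in either genotype. Over the same libraries 13 of 20 tested genes of a cell cycle list fell past the threshold, against 1.49% of all tested genes; the median log2 fold change of the 20 was -1.04.

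Genes that IL-7 restrains in pre-B cells, such as the recombinase and light chain regulators, were all tested, with 0 of 15 called and a median log2 fold change of 0.14. Blnk, the adaptor of pre-B cell receptor signalling, had 264 to 298 CPM in WT and 312 to 352 CPM in ΔrsCBE (log2 fold change 0.25, edgeR adjusted p-value 0.467). Btg1, an anti-proliferative gene, had a log2 fold change of 0.24, with adjusted p-value 0.406 in edgeR. In the PI3K branch, which IL-7 also engages, 0 of 16 tested genes of 17 were called. Pik3ap1, which encodes the adaptor BCAP, had 1665 to 1734 CPM in WT and 1891 to 2027 CPM in ΔrsCBE (log2 fold change 0.21, edgeR adjusted p-value 0.350), and Pik3r1 one of 0.26, with adjusted p-value 0.417 in edgeR. For Pik3r1 the male ΔrsCBE library (497 CPM) lay within the WT range (469 to 520 CPM), and the female-pattern libraries had 621 and 664 CPM.

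**Figure D4:**
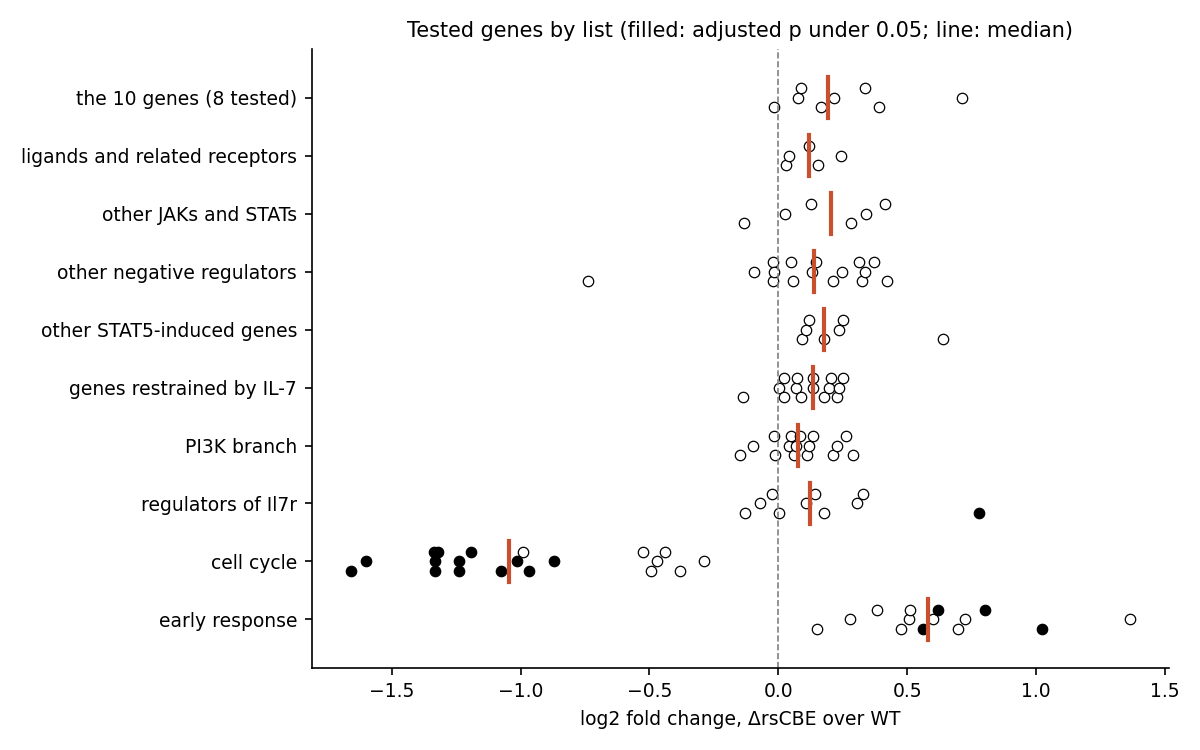
Log2 fold change (horizontal axis, ΔrsCBE over WT) of each tested gene of the 10 genes, the 7 pathway lists, and the cell cycle and early response lists; filled points passed the adjusted p-value threshold, and red lines are medians. The medians of the pathway lists lie between 0.08 and 0.20 with Spi1 as the filled point, while that of the cell cycle list is -1.04 and that of the early response list is 0.58.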

How the data were processed

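The authors deposited whole-number read counts per gene symbol for the 6 libraries, with no normalization. Per the labels' protocols, ribosomal RNA was depleted and libraries were made with a stranded total RNA kit. The submitters' processing notes name Trim Galore 0.6.10, STAR 2.7.11, HTSeq, DESeq2 and the build mm10; the annotation and the strand setting of the counting are not given in the sources used here. Libraries were assigned by the library name in the labels.

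Counts were tested with edgeR 4.0.16 in R 4.3.3: filterByExpr (minimum count 10, by genotype), TMM scaling, robust glmQLFit and glmQLFTest with genotype as the sole term, fitted on all 7792 genes kept. The procedure was tested on simulated data. CPM used TMM-scaled totals of the kept genes, and log2 CPM a prior count of 2. Standard errors and 95% intervals came from the F statistic. Ratios were compared with exact permutation tests in scipy 1.17.1. Alternatives covered scaling, filter, test (DESeq2 1.42.0), threshold, left-out libraries, a replicate block, a sex covariate and male-pattern libraries only; the last was chosen after seeing the data.

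The genes and lists were chosen with earlier results of these data known. Named beside the 10 genes were all ligands and related receptors, the other JAKs and STATs (1 is not reported here), genes past the threshold, and the 2 genes with the smallest p-values in each wider list. Same-numbered libraries did not deviate together (correlations 0.00908 to 0.0197).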

Additional observations from a re-analysis of the deposited data

How the results depend on the processing

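None of the 8 tested genes passed the threshold under any of 16 alternatives, and DESeq2 and edgeR each gave 0. Over all genes the count of 132 became 87 with the sex covariate and 59 to 187 with 1 library left out. With that covariate the genotype term rests on ΔrsCBE replicate 1 against WT, the same contrast as in male-pattern libraries alone. The count of 87 therefore does not measure how many of the 132 calls depend on sex pattern. The lowest count, 59, came without WT replicate 3 and without ΔrsCBE replicate 3. In the wider lists the count of 1 became 0 with the DESeq2 Wald test, the replicate block and the sex covariate, 2 when the filter was 1 CPM or more in 3 libraries, and 0 to 2 with 1 library left out. The replicate block changed no call among the 10 genes (136 calls over all genes); the libraries share only a number, not a stated source. The cause of these changes was not tested. Signs turned for 5 genes, none of them past the threshold. Il7r was -0.10 with the sex covariate and in male-pattern libraries alone, and -0.021 to 0.16 with 1 library left out (negative without ΔrsCBE replicate 3). Jak1 was 0.0049 with the CPM filter, 0.039 with the sex covariate, 0.041 in male-pattern libraries and -0.046 to 0.030 with 1 library left out (positive without WT replicate 1 or ΔrsCBE replicate 2). Jak3 was -0.16 with the sex covariate, -0.15 in male-pattern libraries and 0.046 to 0.66 with 1 library left out. Stat5b was -0.032 to 0.25 with 1 library left out (negative without WT replicate 1). Socs1 was -0.23 with the sex covariate, -0.22 in male-pattern libraries and -0.13 to 0.58 with 1 library left out (negative without WT replicate 1 or ΔrsCBE replicate 2). Stat5a, Il2rg and Pim1 stayed above 0 under all 15 alternatives fitted for them, Stat5a between 0.56 and 0.88 and Pim1 between 0.061 and 0.30. Depth limits Jak3, Socs1, Cish and Socs3 most.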
